A study of Mus musculus with 6 samples.

Results

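The entries described are the mature miRNAs of the miR-146a, miR-146b and miR-155 hairpins in extracellular vesicles that mouse osteoblasts, the bone-forming cells, release when they die by apoptosis. They were taken by name, with any arm suffix, from a table of RPM values, in which the listed reads of each library are scaled to a total of 1000000. Of its 1712 entries 5 matched, namely mmu-miR-146a-5p, mmu-miR-146b-5p, mmu-miR-155-5p, mmu-miR-146b-3p and mmu-miR-155-3p. The mmu- prefix is left out below. The 6 small RNA libraries come from vesicles of SIRT6f/f osteoblasts (control, 3 libraries), whose label names no Cre, and of Prx1cre;SIRT6f/f osteoblasts (knockout, 3 libraries). Both groups carry the floxed Sirt6 allele, and Cre from the Prx1 enhancer acts in limb mesenchyme and its descendants, so the deletion is not specific to osteoblasts. Osteoblasts of both groups were made apoptotic and held without serum for 48 h before vesicles were pelleted. The labels give neither the age of the mice nor the number of animals or cultures behind a library. So p-values reflect only spread between these libraries, which may be technical. In the limma fit to RPM of all 6 libraries, standard errors, intervals and p-values take that spread almost wholly from a trend over entries. Each member's own libraries add little there, but can weigh more in fits with other scalings. Loss of Sirt6 mRNA cannot be read from a miRNA table.

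A miRNA is cut from one or the other arm of a hairpin precursor (5p or 3p) and pairs with mRNAs mainly through its seed, bases 2 to 8. miR-146a and miR-155 are classic NF-kB-induced miRNAs: Toll-like receptor or cytokine signalling raises their transcription. miR-146 then lowers the signalling adaptors Traf6 and Irak1 and so damps the pathway, whereas miR-155 lowers brakes such as Socs1 and Ship1 and is abundant in activated leukocytes. SIRT6 is a chromatin deacetylase described as a brake on NF-kB target genes.

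The 5p sequences are shown because the 2 miR-146 members share a seed and nearly all other bases, while miR-155-5p does not (RefSeq, GRCm38.p6, seed in capitals, 5′ to 3′).
miR-146a-5p: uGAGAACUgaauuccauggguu
miR-146b-5p: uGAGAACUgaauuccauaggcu
miR-155-5p: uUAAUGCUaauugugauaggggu
Counted from 1 at the 5′ end, miR-146a-5p and miR-146b-5p differ by G18A and U21C (the miR-146a-5p base first) and are identical at the other 20 of 22 bases. A read that stops at base 17 or earlier is the same for both, and the authors' way of assigning such reads was not given in the sources used here. The seed GAGAACU occurs in 2 of 1679 mature mouse miRNA names of the RefSeq table, these 2 (0.119%), and the seed UAAUGCU in miR-155-5p only.

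The hairpins are shown because they carry both arms, and nearly all miR-146b reads came from one of them (both mature arms in capitals).
Mir146: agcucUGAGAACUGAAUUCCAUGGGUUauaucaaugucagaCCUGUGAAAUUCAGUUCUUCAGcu
Mir146b: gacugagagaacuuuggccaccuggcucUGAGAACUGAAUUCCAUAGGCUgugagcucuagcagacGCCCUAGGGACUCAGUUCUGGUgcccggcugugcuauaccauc
Mir155: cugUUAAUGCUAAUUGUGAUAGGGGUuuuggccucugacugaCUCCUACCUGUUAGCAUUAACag
The hairpin of miR-146a lies on the minus strand at chr11:43374397-43374461 of GRCm38 and overlaps no other gene of GENCODE M21. That of miR-146b lies on the plus strand at chr19:46342762-46342870, in an intron of the protein-coding gene Mfsd13a on the same strand. That of miR-155 lies on the plus strand at chr16:84714140-84714204, in an exon of its long non-coding host gene Mir155hg. The authors' build was not given in the sources used here, so these positions were matched by miRNA name.

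The libraries held 1352045 to 1838239 reads by the step size of their values, and 943 to 1115 entries were above 0. Each column sums to 1000000, of which reads with a miRNA name made up 50.0% to 56.9% in the control and 37.2% to 47.2% in the knockout libraries; the rest belongs to entries without a miRNA name. Names set apart as possible ribosomal or transfer RNA fragments took 2.26% to 4.18% of reads in control libraries and 6.98% to 8.19% in knockout libraries. Mesenchymal marker miRNAs, which mark the labelled lineage, were abundant: 11 of 12 had a value, and together they reached 159209 to 179849 RPM in the control and 64406 to 124412 RPM in the knockout libraries. Endothelial markers (4 of 4 with a value) summed to 85.1 to 105 RPM and 23.4 to 52.2 RPM, epithelial markers (6 of 6) to 21.4 to 25.2 RPM and 16.9 to 31.1 RPM, and erythroid markers (4 of 5) to 560 to 833 RPM and 248 to 441 RPM, control and knockout in turn. In the limma test described below, 2 of 4 tested erythroid and 2 of 11 mesenchymal markers were called lower. No endothelial or epithelial marker was called, and of 8 tested possible fragments 3 were called higher and 2 lower. Over all tested entries, 2.69% were called lower and 2.15% higher. An unadjusted limma p under 0.05 was found for 3 of 4 erythroid, 8 of 11 mesenchymal, 3 of 4 endothelial and 0 of 4 epithelial markers. The same held for 6 of 8 possible fragments, 20.02% of all tested entries and 138 of 274 miRNA names at a mean RPM of 10 or more. RPM cannot tell fewer vesicles or cells carrying a miRNA from less of it in each.

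miR-146b-5p and miR-146a-5p were abundant cargo in every library, and miR-155-5p was close to the detection limit. By mean RPM over the 6 libraries they ranked 23, 37 and 343 among 1528 entries with a miRNA name. Lengths are 22, 22 and 23 bases, so their RPM values were compared without a length correction. In each of the 6 libraries miR-146b-5p was above miR-146a-5p, by a ratio of 2.04 to 2.45, and the lowest miR-146b-5p value (2806 RPM) lay above the highest miR-146a-5p value (2318 RPM). The 2 together exceeded miR-155-5p by a ratio of 484 to 4758. At the bottom of the order, miR-155-5p and miR-146b-3p overlapped in range.

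**Figure D1:**
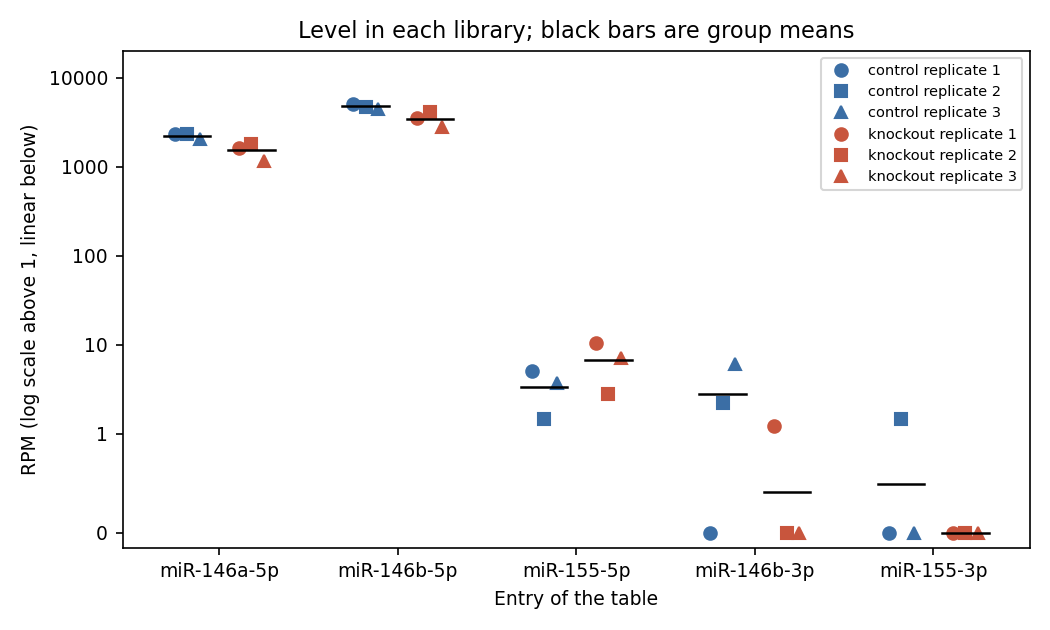
RPM of each of the 5 entries (x axis) in each library (y axis, logarithmic above 1 and linear below), with control libraries in blue, knockout libraries in red and black bars for group means. The miR-146 5p members lie between 1145 and 5060 RPM, and miR-155-5p between 1.48 and 10.6 RPM.

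**Figure D2:**
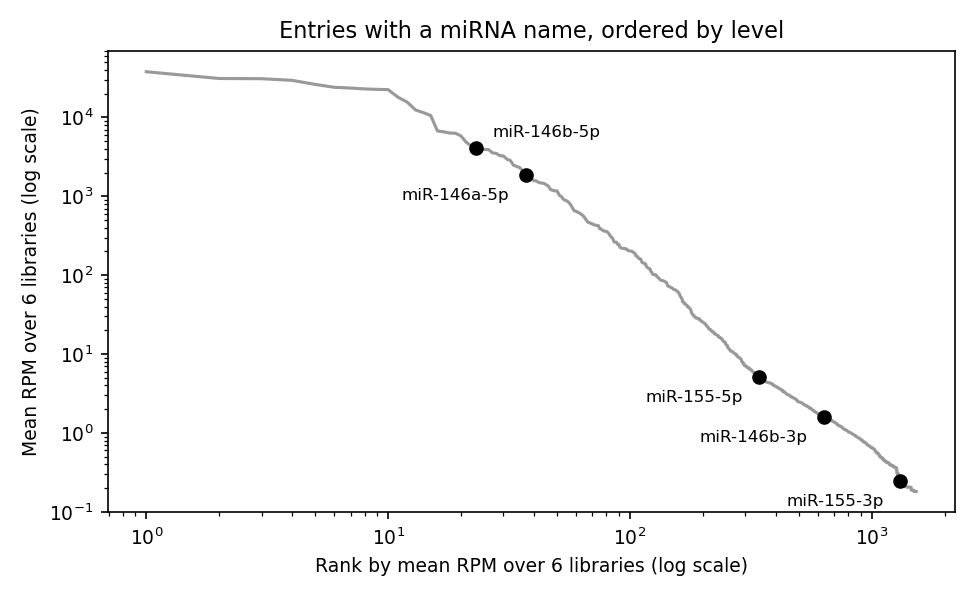
Mean RPM over the 6 libraries (y axis, log scale) of all entries with a miRNA name and a mean above 0, against their rank (x axis, log scale), with the 5 entries as black points. miR-146b-5p is at rank 23 and miR-146a-5p at rank 37, while miR-155-5p is at rank 343.

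The next comparison asks whether vesicles from Sirt6-deleted osteoblasts carried different amounts of these miRNAs. miR-146a-5p and miR-146b-5p had lower RPM values in all 3 knockout than in all 3 control libraries, by about the same proportion, but neither passed the test across all entries, and the groups overlapped when possible fragments and unnamed entries were left out of the total. miR-155-5p had a higher mean in the knockout group with overlapping libraries. The test was limma on log2(RPM + 1) with a mean-variance trend, 2-sided, with Benjamini-Hochberg adjusted p under 0.05, over the 1114 entries that reached 1 RPM in 3 or more libraries; 4 of the 5 entries were tested and miR-155-3p was not.

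miR-146a-5p, the member most studied as a brake on Traf6 and Irak1, was at 2318, 2316 and 2060 RPM in control replicates 1, 2 and 3 and at 1614, 1804 and 1145 RPM in knockout replicates 1, 2 and 3. The groups did not overlap, and knockout replicate 3 was the lowest. The mean went from 2231 ± 148 to 1521 ± 339 RPM (SD, n = 3 each), a ratio of 0.682. The log2 fold change, on the log2(RPM + 1) scale, was -0.58 ± 0.29 (SE; unadjusted 95% interval -1.14 to -0.01), with a limma adjusted p = 0.241. Counting error was small beside this spread: the exact Poisson 95% interval for control replicate 1 was 2239 to 2400 RPM and that for knockout replicate 3 was 1096 to 1195 RPM. Such intervals cover counting error only, since reads without molecular identifiers are not independent molecules.

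miR-146b-5p, which shares the seed and is made from its own gene, was at 5060, 4722 and 4493 RPM in the control and at 3505, 4080 and 2806 RPM in the knockout libraries, in replicate order. Here too every knockout library was below every control library. The mean went from 4759 ± 285 to 3464 ± 638 RPM (SD, n = 3 each), a ratio of 0.728. The log2 fold change was -0.47 ± 0.30 (SE; unadjusted 95% interval -1.06 to 0.12), with a limma adjusted p = 0.394. In the control group the libraries varied little, with a coefficient of variation of 6.65% for miR-146a-5p and 5.99% for miR-146b-5p, against 22.3% and 18.4% in the knockout group. Without knockout replicate 3 the log2 fold changes were -0.38 and -0.33. Knockout replicate 3 also had the lowest share of reads with a miRNA name, 37.2%, against 45.7% and 47.2% in knockout replicates 1 and 2. As shares of miRNA-name reads without possible fragments, given below, the control and knockout SDs lay closer. They were 0.0293 and 0.0320 percentage points for miR-146a-5p, and 0.0255 and 0.0430 for miR-146b-5p.

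miR-155-5p, the leukocyte-rich and proinflammatory member, was at 5.05, 1.48 and 3.69 RPM in the control and at 10.6, 2.82 and 7.07 RPM in the knockout libraries. Knockout replicates 1 and 3 were above every control library, and knockout replicate 2 lay inside the control range. By the step size of the values, these levels stand for 7, 2 and 6 reads against 17, 5 and 13 reads, and 3 reads correspond to 1.63 to 2.22 RPM depending on the library. The mean went from 3.40 ± 1.80 to 6.82 ± 3.88 RPM (SD, n = 3 each). The log2 fold change was 0.78 ± 0.66 (SE; unadjusted 95% interval -0.51 to 2.08), with a limma adjusted p = 0.587. Summed over libraries, 15 control and 35 knockout reads gave a ratio of 1.95, with an exact 95% interval of 1.04 to 3.85 that covers counting error and leaves out the spread between libraries. The log2 fold change was 0.41 without control replicate 2, 0.43 without knockout replicate 1 and 1.23 without knockout replicate 2. It was 0.46 with all libraries and a pseudocount of 5. A change of miR-155-5p was not detectable at this depth and spread.

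The 3p arms were nearly empty. miR-146b-3p was listed at 0 in control replicate 1, at 2.22 RPM in control replicate 2, at 6.14 RPM in control replicate 3, at 1.24 RPM in knockout replicate 1 and at 0 in knockout replicates 2 and 3. These are 13 reads in the control and 2 reads in the knockout group, with overlapping libraries (log2 fold change -1.12 ± 0.73 SE, limma adjusted p = 0.418). Of the 13 control reads, 10 were in control replicate 3, and without that library the log2 fold change was -0.45. The 5p arm made up 99.86% to 100% of the reads of both miR-146b arms in each library. miR-155-3p was listed at 1.48 RPM (2 reads) in control replicate 2 and at 0 in the other 5 libraries. In control replicate 2 the 5p arm thus made up 50% of the reads of both miR-155 arms. No entry named miR-146a-3p was listed, so there was no value for it. Since no value in the table stands for 1 read, a listed 0 can be 0 or 1 read.

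Across the table, 4.85% of tested entries passed the limma threshold (54 of 1114: 30, or 2.69%, lower and 24, or 2.15%, higher in the knockout). None of the 4 tested members did, and 1 of them, miR-146a-5p, had an unadjusted limma p under 0.05, as did 20.02% of all tested entries and 138 of the 274 with a miRNA name and a mean RPM of 10 or more. The count of 54 was 21, 6 and 0 without control replicates 1, 2 and 3 and 36, 20 and 41 without knockout replicates 1, 2 and 3. The entries at an unadjusted limma p under 0.05 then ranged from 137, without control replicate 3, to 229, without knockout replicate 2. The groups did not overlap for 25.6% of tested entries (19.3% lower in the knockout) and for 2 of the 4 tested members, both lower. Among entries with a miRNA name and a mean RPM of 10 or more, 52.2% were lower in the knockout with no overlap. A separation like that of the 2 abundant miR-146 members was thus common in that class, which starts far below these members. Their log2 fold changes also lay near the median of that class, -0.59 over 274 entries, against -0.27 over all tested entries. The entries ranked directly around them gave similar values or the opposite direction: miR-191-5p -0.56 and let-7a-5p -0.66 around miR-146b-5p, and miR-3106-5p 0.28 and miR-27a-3p -0.75 around miR-146a-5p. None of these 4 passed the threshold (limma adjusted p = 0.279, 0.184, 0.659 and 0.1002 in that order). Around miR-155-5p, miR-6923-3p had -1.28 and miR-195a-3p 0.01 (limma adjusted p = 0.252 and 0.994).

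The size of the miR-146 difference depended on what reads were compared with. As a share of reads with a miRNA name, miR-146a-5p was at 0.408%, 0.463% and 0.409% in the control and at 0.353%, 0.382% and 0.307% in the knockout libraries. Each knockout library was again below each control library (0.426% ± 0.0318 against 0.347% ± 0.0377, SD, n = 3 each; exact 2-sided permutation p = 0.1, the lower bound for 3 libraries against 3; 0.15 adjusted over the 3 members). For miR-146b-5p the shares were 0.890%, 0.945% and 0.891% in the control and 0.767%, 0.864% and 0.753% in the knockout libraries, also without overlap (exact permutation p = 0.1, 0.15 adjusted over the 3 members). How many other entries separated on this scale was not counted, so the separation is not read as particular to these members. In RPM, 52.2% of miRNA names at a mean of 10 or more were lower in the knockout with no overlap. For miR-155-5p the mean share went from 0.000638% ± 0.000307 to 0.00160% ± 0.000895 (SD, n = 3 each), with overlap (exact permutation p = 0.3, 0.3 adjusted over the 3 members).

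When the possible fragments were also left out of the denominator, the miR-146 groups overlapped. miR-146b-5p was then at 0.960%, 0.989% and 0.939% in the control and at 0.934%, 1.01% and 0.946% in the knockout libraries. The means were 0.963% ± 0.0255 and 0.965% ± 0.0430 (SD, n = 3 each; exact permutation p = 1, and 1 adjusted over the 3 members). miR-146a-5p was at 0.440%, 0.485% and 0.430% in the control and at 0.430%, 0.448% and 0.386% in the knockout libraries (exact permutation p = 0.4, 0.6 adjusted over the 3 members). In the limma fit scaled the same way, the log2 fold changes were -0.10 ± 0.17 for miR-146a-5p and 0.0022 ± 0.18 for miR-146b-5p, the latter with its sign turned, and 1.17 ± 0.62 for miR-155-5p (SE; limma adjusted p = 0.826, 0.993 and 0.413). That scaling moved the median of all tested entries from -0.27 to 0.07 and the calls to 38 higher and 2 lower. On it, miRNA names at a mean RPM of 10 or more had a median log2 fold change of -0.13.

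**Figure D3:**
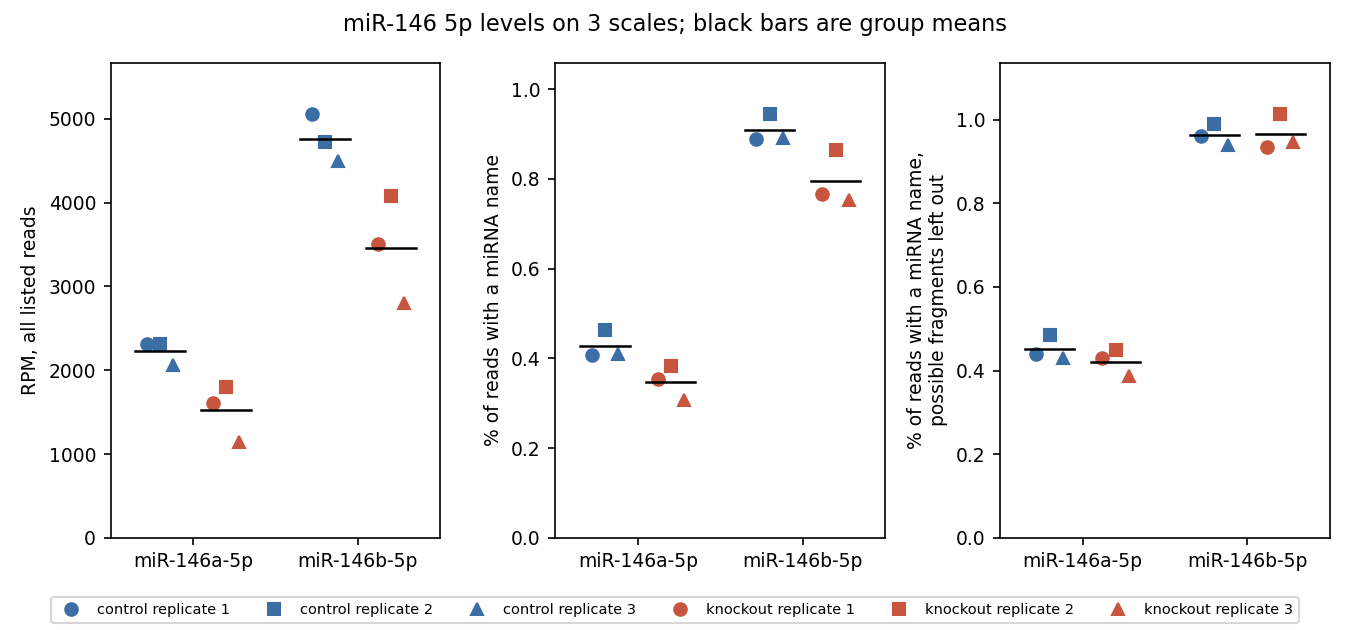
miR-146a-5p and miR-146b-5p in each library on 3 scales (y axes from 0): RPM, percent of reads with a miRNA name, and percent of those reads with possible fragments left out; control in blue, knockout in red, black bars for group means. The groups are apart in the first and second panels and overlap in the third, where miR-146b-5p has means of 0.963% and 0.965%.

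**Figure D4:**
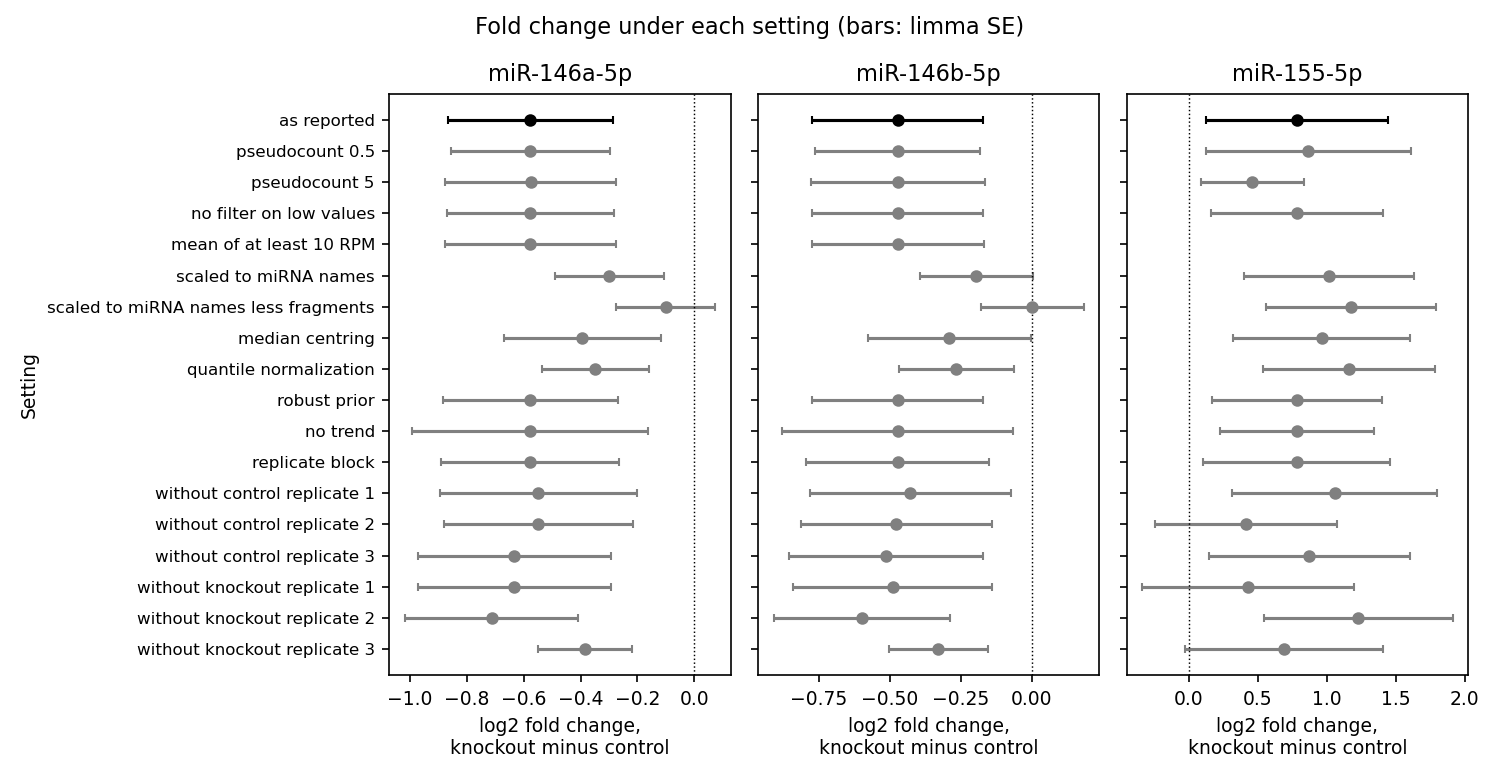
log2 fold change (x axis, knockout minus control, with bars for the limma SE) of miR-146a-5p, miR-146b-5p and miR-155-5p under each setting (y axis); the black point is the value as reported. miR-146a-5p stays between -0.71 and -0.10, miR-146b-5p runs from -0.60 to 0.0022, and miR-155-5p from 0.41 to 1.23.

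The proportion of the miR-146 members inside a library does not depend on scaling. miR-146a-5p made up 31.4%, 32.9% and 31.4% of the miR-146 5p reads in the control and 31.5%, 30.7% and 29.0% in the knockout libraries. The groups overlapped, with means of 31.9% ± 0.853 and 30.4% ± 1.30 (SD, n = 3 each), a difference of -1.53 percentage points (exact permutation p = 0.3), or -0.83 points without knockout replicate 3. Thus miR-146b-5p supplied the larger part of the reads with the shared seed in all 6 libraries. The log2 ratio of miR-155-5p to the summed miR-146 5p members, with 1 RPM added to each, was -10.25, -11.47 and -10.45 in the control and -8.79, -10.59 and -8.94 in the knockout libraries. Again knockout replicates 1 and 3 were above the control libraries and knockout replicate 2 was among them. The means were -10.72 ± 0.65 and -9.44 ± 0.999 (SD, n = 3 each), a difference of 1.29 (exact permutation p = 0.3). At so few reads the added RPM enters this ratio, and the difference was 1.37 with 0.5 RPM added and 0.96 with 5 RPM added.

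Across the 6 libraries, log2(RPM + 1) of miR-146a-5p and miR-146b-5p had a Pearson r of 0.990, given as a description, since the values of each library share its depth and a fixed total. Among 273 other miRNA names at a mean RPM of 10 or more, those most like miR-146a-5p were miR-467a-5p (r = 0.995), miR-99a-5p (r = 0.993) and miR-1249-3p (r = 0.993). Those most like miR-146b-5p were miR-31-5p (r = 0.996), miR-196a-5p (r = 0.995) and miR-700-3p (r = 0.994). Such likeness was common, with r above 0.9 for 128 of 273 entries with miR-146a-5p (median 0.890) and 119 of 273 with miR-146b-5p (median 0.881). miR-155-5p ran the other way, with r = -0.61 with miR-146a-5p and -0.62 with miR-146b-5p and a median of -0.40 over 274 entries. The entries most like it were miR-1983 (r = 0.914), miR-677-3p (r = 0.872) and miR-6942-3p (r = 0.828), and its few reads limit these values.

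Other miRNAs linked to NF-kB or Toll-like receptor signalling, either induced by it or acting on it, formed a list of 21 names, of which 20 had a value and 18 were tested. None passed the limma threshold in either direction, against 4.85% of all tested entries, and 6 of 18 had an unadjusted p under 0.05, beside 20.02% of all tested entries and 138 of 274 miRNA names at a mean RPM of 10 or more. Their median log2 fold change was -0.70 with 17 of 18 below 0, and the median was -0.40 without knockout replicate 3. Over all tested entries the median was -0.27 with 60.1% below 0. For miRNA names at a mean RPM of 10 or more it was -0.59 with 78.8% below 0. Of the 20 list names with a value, 10 had a mean under 10 RPM, so the list's median and count rest partly on few reads. The most abundant were miR-125b-5p, which targets Tnf mRNA (37256 ± 5139 to 21773 ± 4608 RPM, -0.79, limma adjusted p = 0.179), and miR-21a-5p, a broadly stress-induced miRNA (25887 ± 1317 to 22269 ± 5140 RPM, -0.24, limma adjusted p = 0.747). Next were let-7i-5p, which targets Tlr4 (15141 ± 762 to 9636 ± 3095 RPM, -0.71, limma adjusted p = 0.191), and miR-10a-5p, from a Hox locus (4127 ± 191 to 3706 ± 311 RPM, -0.16, limma adjusted p = 0.799; all SD, n = 3 each). After scaling to miRNA names without possible fragments, 14 of 18 lay below 0 and the list had a median of -0.26, with miR-21a-5p at 0.23 and miR-10a-5p at 0.32.

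**Figure D5:**
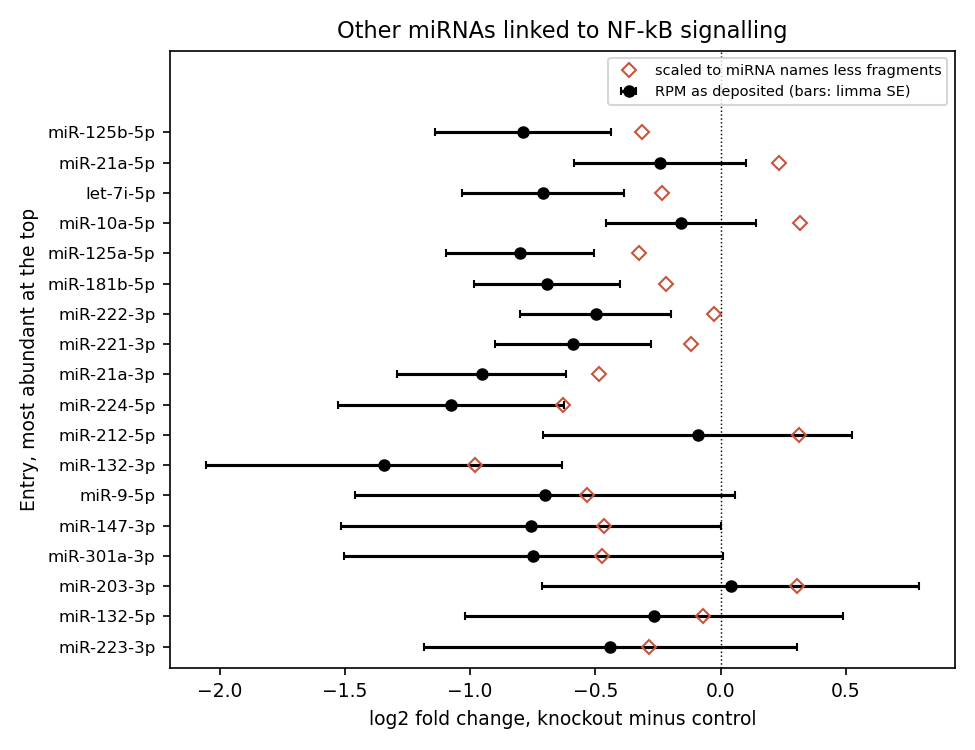
log2 fold change (x axis, knockout minus control) of the 18 tested NF-kB-linked miRNAs (y axis, most abundant at the top): black points are RPM as deposited with bars for the limma SE, open red diamonds are values scaled to miRNA names without possible fragments. The black points have a median of -0.70 and the diamonds a median of -0.26.

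Leukocytes are a rich source of miR-155 and miR-146a, so their marker miRNAs were measured too. Of 8 leukocyte markers, 7 had a value, and 4 of these were under a mean of 10 RPM. Their sum ranged from 297 to 323 RPM in the control and from 180.6 to 245 RPM in the knockout libraries, most of it miR-342-3p (241 ± 22.7 and 189 ± 20.5 RPM, SD, n = 3 each). Of the markers most restricted to blood cells, miR-142a-5p was at 38.5 ± 12.2 and 17.3 ± 4.95 RPM, miR-150-5p at 24.7 ± 2.63 and 13.6 ± 8.70 RPM, miR-223-3p at 2.21 ± 2.67 and 0.98 ± 0.88 RPM and miR-142a-3p at 0.72 ± 1.25 and 0.75 ± 1.30 RPM. None of the 4 tested passed the limma threshold (2 had an unadjusted p under 0.05, beside the same 138 of 274), and all 4 lay below 0, or 3 of 4 after scaling to miRNA names without possible fragments. The part of such cells in the miR-146 and miR-155 values was not tested.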

How the data were processed

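Per the labels' protocols, Trizol RNA was made into small RNA libraries with a kit. The authors deposited 1 table of RPM values, scaled to the listed reads of each library; fastp and edgeR appear, per the submitters' processing notes, without roles or versions, and the aligner, miRNA release and build were not given in the sources used here. All RPM values were whole multiples of 0.5 of the column's lowest non-zero value (tolerance 0.001 read). That lowest value was taken as 2 reads, and no value stood at 1 read, so no count test was run. Groups come from sample titles. limma 3.58.1 in R 4.3.3 was fitted to log2(RPM + 1) of all 6 libraries and tested on simulated data; its standard errors rest almost wholly on the trend over entries. Single ratios and shares were compared with exact permutation tests (scipy 1.17.1). The members, lists, tests and alternatives were chosen with earlier results of these data known. Named entries are the members, their neighbours in rank, the 3 most alike in pattern, and, of the NF-kB-linked list, those that passed (none did) and the 4 most abundant; entries of the leukocyte list were named after their values were seen. The possible-fragment list (9 of 14 names with a value) is a set of names, and that origin was not established here. Hairpins and sequences were matched by name to RefSeq and GENCODE M21.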

Additional observations from a re-analysis of the deposited data

How the results depend on the processing

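Alternatives were other pseudocounts, filters, scalings and priors, a replicate block and leaving out each library. miR-146a-5p kept a negative log2 fold change in all 17 (-0.71 to -0.10; limma adjusted p from 0.121 to 0.826), miR-155-5p a positive one in all 16 it entered (0.41 to 1.23; limma adjusted p from 0.328 to 0.832) and miR-146b-3p a negative one in all 16 (-1.87 to -0.45), none past the threshold. miR-146b-5p kept its direction in 16 of 17 and turned to 0.0022 when scaled to miRNA names without possible fragments (limma adjusted p = 0.993); its share of miRNA-name reads likewise turned from a difference of -0.114 to 0.0019 percentage points. The number of entries called was 54, and 98 when the 355 entries at a mean RPM of 10 or more were tested, 33 when scaled to miRNA names, 0 without a trend (limma; 130 at an unadjusted p under 0.05) and 0 to 41 with a library left out. With a single pair of libraries of a group left, the spread is pooled over both groups. The replicate block gave 30 calls and 0 members among them. Same-numbered libraries had correlations of their deviations of 0.046, 0.137 and 0.061 over 354 entries, so the numbers are not taken as pairs, and not every library correlated best with its own number. The edgeR alternative was not run, since the recovered reads are incomplete. Depth limits miR-155-5p and the 3p arms, at 2 to 17 reads where above 0.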
